A study of Rattus norvegicus with 8 samples.

Results

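The genes described here mark white blood cells and the presentation of antigens to them, measured in total RNA of rat extraocular muscles, which turn the eyeball. They were taken as a list of 10 genes: Ptprc, Cd68, Adgre1, Cd14, Cd163, Cd74, B2m, Tyrobp, Csf1r and Cd3e. All 10 were found, on 13 of the 31042 probe sets (groups of short probes that together report 1 transcript) of the Affymetrix array, by the gene symbol of each probe set. Of the 13 probe sets, 10 passed a filter on dim signals, set at a mean of about 28.2 intensity units, so 9 of the 10 genes were tested among 10446 genes in all, on 18625 probe sets. Cd3e and 1 of the 2 Ptprc probe sets lay under the filter. For the 9 tested genes both groups' mean log2 signals lay above it, so 0 of them passed through 1 group alone.

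The 8 adult Sprague-Dawley rats (200 ± 40 g at the start) were split at random into equal groups. The 4 hyperthyroid rats were injected intraperitoneally with T3, the active thyroid hormone, at 25 µg per 100 g of body weight on alternate days for 6 weeks, and were killed 24 hours after the last dose. The 4 control rats are labelled as untreated, and a sham injection is not mentioned in the sources used here. Each rat gave 1 array, labelled as dissected extraocular muscle and named by group and title number, as hyperthyroid 1, 2, 3 and 5 and control 7, 8, 9 and 11. The labels do not name a cell type, and in bulk tissue fewer cells of a type and less RNA per cell cannot be told apart.

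Leukocytes reach skeletal muscle with the blood and settle in its connective tissue, where macrophages are the most common resident type. Macrophages depend on the growth factor receptor encoded by Csf1r, take up debris, and sense bacterial products and haemoglobin through the receptors encoded by Cd14 and Cd163. Antigens are shown to T cells on MHC molecules: class I chains pair with beta-2 microglobulin on nearly all nucleated cells, and class II chains, guided by the invariant chain Cd74, are carried mainly by macrophages, dendritic cells and B cells.

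Array facts that bear on these genes are few. The array labelled hyperthyroid 5 lacked Myh13, the extraocular myosin heavy chain (4.17 against 5430 to 9340 on the other 7). It also had Hoxa10, a patterning gene of the trunk and limbs, at 398.5 against at most 27.8, and the slow myosin Myh7 at 13031 against at most 4096.5. These markers go against its label, and whether it holds another muscle or a different dissection was not tested, which limits every value that includes it. Hyperthyroid 2 and 5 were both low in the glial transcript Mobp (15.3 and 1.37 against at least 1249). Hyperthyroid 5 and 2 also had the lowest mean correlation with the other arrays, 0.848 and 0.855, where the others had 0.877 to 0.896. Values of the 10 genes are therefore given with and without hyperthyroid 5. The Gapdh 3 prime to 5 prime ratio, a measure of RNA shortening, was highest on hyperthyroid 2 (4.40) and hyperthyroid 1 (3.91). It was 2.18 on hyperthyroid 3 and lowest on hyperthyroid 5 (1.44), with 1.67 to 1.97 on the controls. Without hyperthyroid 5 every hyperthyroid array thus lay above every control, so ratio and group cannot be cleanly told apart in a fit on those arrays. Eif2s3y, a gene of the Y chromosome, was at 6.32 on hyperthyroid 1 and 16.2 on control 11 and at 533 or more elsewhere. Xist, a transcript of the inactive X chromosome of females, was at 366.9 and 350.5 on these 2 arrays and at most 44.5 elsewhere. By these 2 genes each group holds 1 array with a female pattern. The muscle fibre transcript Ckm ran from 18812 to 28035, and the red cell transcript Hbb from 7162 to 13568 (13568.5 on control 11).

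No gene of the list passed the test between the groups. In limma, with Benjamini-Hochberg adjustment over 18625 probe sets, 0 of the 10 tested probe sets had an adjusted p under 0.05, where 0.0% of all probe sets did; at an unadjusted p under 0.05 the counts were 0 of 10 and 11.5%. The adjusted p of the 10 ran from 0.589 for Ptprc to 0.905 for Cd74. The log2 difference (hyperthyroid minus control) lay between -0.59 for Adgre1 and 0.60 for Ptprc, with 6 of 10 probe sets lower in hyperthyroid arrays against 47.5% of all probe sets. Over the 9 genes, each by its brightest probe set, the median was -0.12, and over all 10446 genes it was 0.01. With 1 array left out at a time, the median over the 9 genes ran from -0.34 to 0.21. Without hyperthyroid 5, 0 of 10 passed again, where 29 of 18625, or 0.156%, of all probe sets did. In that fit 9 of 10 were lower, against 45.8% of all probe sets. At an unadjusted p under 0.05 there was 1 of 10, against 15.2% of all, and it was lower, as were 7.66% of all at that threshold.

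A single array decided the sign of several of these differences. All 10 tested probe sets had their highest signal on hyperthyroid 5, as did 17.1% of all tested probe sets. On this array 4 of the 10 lay more than 2-fold above the control mean, against 6.79% of all. Hyperthyroid 2 lay at the other end: 5 of the 10 had their lowest signal there, against 16.4% of all, and 6 of the 10 lay below every control on it, against 26.5%. The lowest signal of another 3 was on hyperthyroid 1, against 12.3% of all, and that of Ptprc and Cd68 on control 9. For 8 of the 10 both extremes thus lay in the hyperthyroid group, a count for which the share over all probe sets was not taken. No tested probe set of the list separated the 2 groups on all 8 arrays, where 7.55% of all probe sets did.

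The Gapdh ratio moved these differences as well. Once the 8-array fit took it in, 9 of the 10 probe sets were higher in hyperthyroid arrays, against 52.9% of all, where 4 of the 10 had been higher without it. The log2 differences of Adgre1, Cd163, Tyrobp and B2m turned positive (0.16, 0.37, 0.20 and 0.25). Those of Cd14, Cd68, Cd74 and Ptprc went to 0.89, 0.83, 0.83 and 0.90, and that of Csf1r to -0.0024. None was called (adjusted p of 0.258 or more in limma). This fit includes hyperthyroid 5, which has the lowest ratio. Without hyperthyroid 5 the same fit gave -0.22 for Cd68, -0.33 for Cd163, -0.039 for Cd74, -0.68 for Tyrobp and -0.41 for Csf1r. It gave 0.94 for Ptprc, 0.32 for Adgre1, 0.31 for Cd14, and 0.0092 and 0.19 for B2m. Ratio and group cannot be cleanly told apart on those arrays.

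**Figure D1:**
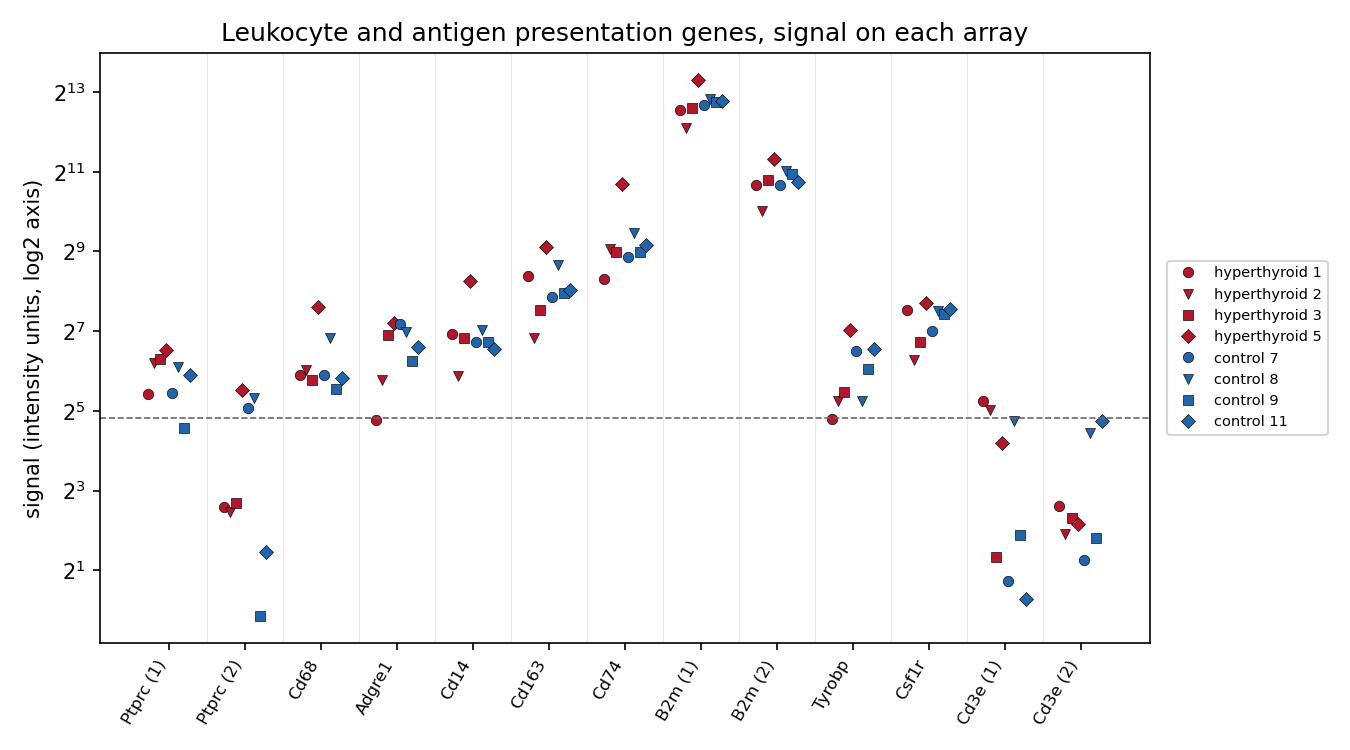
Signal of the 13 probe sets on each of the 8 arrays, in intensity units on a log2 axis, with hyperthyroid arrays in red and control arrays in blue, and the dashed line at the filter level of 28.2. Numbers in brackets tell apart probe sets of the same gene, the brighter one first. Hyperthyroid 5 (red diamond) is the highest of the 8 in every probe set that passed the filter.

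Ptprc encodes CD45, the phosphatase carried by all leukocytes. Its brighter probe set gave 42.65, 73.4, 79.1 and 92.7 on the hyperthyroid arrays 1, 2, 3 and 5, and 43.9, 68.9, 24.0 and 60.05 on the control arrays 7, 8, 9 and 11. The means were 72.0 ± 21.1 and 49.2 ± 19.8 (SD, n = 4 each), and the groups overlapped. The log2 difference was 0.60 ± 0.41 (SE; adjusted p = 0.589 in limma), and 0.46 ± 0.47 without hyperthyroid 5, which makes Ptprc the only tested gene of the list that was higher in hyperthyroid arrays in both fits. The dimmer probe set of Ptprc was at most 6.46 on 5 arrays, namely hyperthyroid 1, 2 and 3 with control 9 and 11. It stood between 33.5 and 45.9 on hyperthyroid 5 and control 7 and 8, a pattern that the brighter one did not share, so the level of this gene is uncertain.

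Csf1r, Tyrobp and Adgre1 mark macrophages, and Tyrobp encodes an adaptor that carries signals of several of their surface receptors. Csf1r signals were 185, 78.0, 106 and 210 in the hyperthyroid group and 127, 183, 173 and 187 in the control group. Hyperthyroid 2 and 3 lay under every control and hyperthyroid 5 above every control. The difference was -0.31 ± 0.31 (log2 ± SE; adjusted p = 0.709 in limma) on 8 arrays and -0.53 ± 0.29 (adjusted p = 0.413) without hyperthyroid 5.

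Tyrobp signals were 27.7, 37.9, 44.6 and 130 on the hyperthyroid arrays. On controls they were 91.4, 37.8, 66.0 and 94.6. Hyperthyroid 1, 2 and 3 thus lay at or near the lowest control, control 8, and hyperthyroid 5 above all. The log2 difference went from -0.46 ± 0.50 to -0.92 ± 0.44 without hyperthyroid 5 (adjusted p = 0.734 and 0.352 in limma).

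Adgre1 encodes the rat counterpart of the mouse macrophage antigen F4/80. Its signals were 27.2, 55.0, 119 and 148 on hyperthyroid arrays and 146, 125, 76.7 and 97.2 on controls, so hyperthyroid 1 and 2 were low and the other pair lay inside or just above the control range. The difference was -0.59 ± 0.48 (log2 ± SE) and, without hyperthyroid 5, -0.94 ± 0.45, the largest of the list in that fit (adjusted p = 0.648 and 0.345 in limma). On hyperthyroid 5 Adgre1 was 1.012 times the next highest array.

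Cd163, the haemoglobin scavenger receptor of resident macrophages, had hyperthyroid signals of 334, 114, 184 and 548. The control signals were 233, 401, 251 and 261. Hyperthyroid 2 and 3 were below all controls and hyperthyroid 5 above all. The difference of -0.17 ± 0.41 (log2 ± SE; adjusted p = 0.891 in limma) was -0.55 ± 0.32 without hyperthyroid 5 and 0.21 without hyperthyroid 2.

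Cd14 and Cd68 changed sign with hyperthyroid 5. Cd14, the co-receptor for lipopolysaccharide, stood at 123, 58.9, 113 and 305 in hyperthyroid and at 106, 130, 106 and 94.2 in control arrays. The controls lay within 94.2 to 130, and hyperthyroid 5 was 2.35 times the highest of the other 7. The log2 difference was 0.22 ± 0.40 with this array and -0.21 ± 0.30 without it (adjusted p = 0.855 and 0.773 in limma).

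Cd68, a lysosomal membrane protein of macrophages, had signals of 60.1, 65.4, 54.9 and 196 on hyperthyroid arrays. On controls it stood at 59.9, 113, 47.1 and 56.6. Apart from hyperthyroid 5 and control 8, the 6 arrays lay within 47.1 to 65.4. The difference was 0.31 ± 0.44 (log2 ± SE) on 8 arrays and -0.12 ± 0.38 without hyperthyroid 5.

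Cd3e, a chain of the T cell receptor complex, was the only T cell gene of the list. Its probe sets had signals of at most 37.8 and 26.7, and only 2 of the 16 values, on hyperthyroid 1 and 2, exceeded the filter level. The brighter one was at 37.8, 32.4, 2.51 and 18.4 in hyperthyroid and at 1.66, 26.9, 3.69 and 1.23 in control arrays, and the other was highest on control 8 and 11 (21.6 and 26.7), so they did not rank the arrays alike. The two-sided exact permutation test, which cannot go below 0.0286 with 4 arrays a group, gave p = 0.200 and p = 0.429. A difference was not detectable at these signals, and no fold is given.

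B2m encodes beta-2 microglobulin, the light chain of MHC class I. The brighter of its 2 probe sets stood at 6024, 4349, 6240.5 and 10122 in hyperthyroid and at 6518, 7213, 6924 and 7025 in control arrays. The controls were close together (6920 ± 294, SD, n = 4), and the hyperthyroid arrays spread over 4349 to 10122. Hyperthyroid 1, 2 and 3 lay below every control, and hyperthyroid 5 was 1.40 times the highest other array. The log2 difference was -0.12 ± 0.21 on 8 arrays and -0.34 ± 0.13 without hyperthyroid 5 (adjusted p = 0.852 and 0.260 in limma, unadjusted p = 0.02645 in the second). B2m was thus the 1 gene of the list whose 2 groups did not overlap without hyperthyroid 5, where 14.8% of all probe sets did not.

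The second B2m probe set ordered the extremes in the same way. Its signals were 1617, 1035, 1773 and 2546 against 1629, 2079, 1960 and 1714. On it hyperthyroid 3 lay inside the control range. The difference was -0.15 ± 0.23 and, without hyperthyroid 5, -0.35 ± 0.18 (log2 ± SE).

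Cd74 encodes the invariant chain, which escorts class II molecules and blocks their groove until peptide is loaded. Its signals were 319, 532, 510 and 1643 in hyperthyroid and 462, 705, 510 and 570 in control arrays. Hyperthyroid 1 was under every control, hyperthyroid 2 and 3 were inside the control range, and hyperthyroid 5 was 2.93 times the control mean of 562 ± 105 (SD, n = 4). The log2 difference was 0.15 ± 0.39 on 8 arrays and -0.33 ± 0.21 without hyperthyroid 5 (adjusted p = 0.905 and 0.475 in limma).

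**Figure D2:**
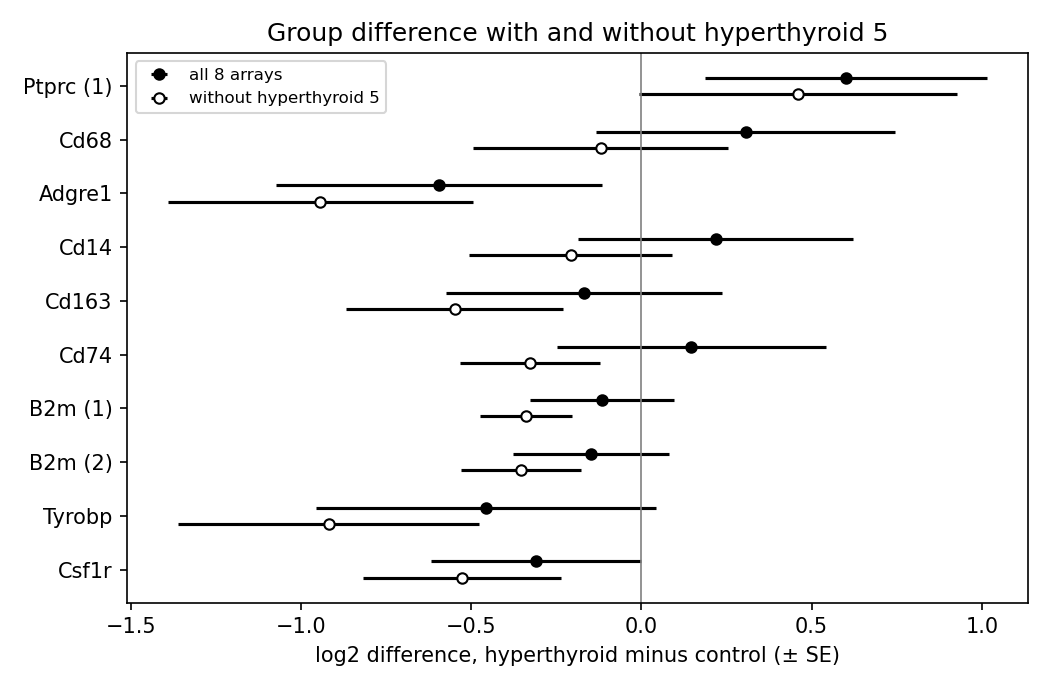
Log2 difference between the hyperthyroid and the control mean for the 10 tested probe sets, with standard errors from limma, on all 8 arrays (filled) and without hyperthyroid 5 (open). Every point moves to the left without hyperthyroid 5, and Cd68, Cd14 and Cd74 change sign.

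The sequences before 3 antigen presentation genes are shown because Cd74 and the class II chains stood further above the control mean on hyperthyroid 5 than B2m did. B2m was also highest on that array, at 1.46 times the control mean, against 2.93 for Cd74. Whether the sequences bear on these signals was not tested. The sequences come from RefSeq (GRCr8), in which a 300-base window around the transcript start was listed for 9 of the 10 genes. Each run is 100 bases on the plus strand that end just before the annotated gene (for B2m and Cd74 the start on which the RefSeq window is placed lies further downstream), at chr3:129549136-129549235 for B2m, chr18:56526971-56527070 for Cd74 and chr20:4576957-4577056 for RT1-Ba, the class II alpha chain. Capitals mark matches, on either strand, to GAAA, any 2 bases, GAAA (the core of the interferon-stimulated response element), CCAAT (bound by NF-Y, a factor needed for class II genes) and TGACG (the core of the cyclic AMP response element).
B2m: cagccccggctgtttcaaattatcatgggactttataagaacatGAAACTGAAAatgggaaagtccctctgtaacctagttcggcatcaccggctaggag
Cd74: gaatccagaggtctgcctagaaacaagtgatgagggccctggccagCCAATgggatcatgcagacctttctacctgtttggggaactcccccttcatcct
RT1-Ba: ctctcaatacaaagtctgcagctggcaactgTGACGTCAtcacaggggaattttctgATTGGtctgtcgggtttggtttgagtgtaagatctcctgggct

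The B2m run holds a match to the interferon element core. This core was found for 2 of the 9 genes with a window (the other is Adgre1) and in 3.92% of 33469 windows of all genes. The Cd74 run holds CCAAT, as do the windows of 6 of these 9 genes and 37.5% of all. In the RT1-Ba run 2 TGACG matches on opposite strands overlap in TGACGTCA, followed by CCAAT on the minus strand. The B2m window also holds CCAAT and TGACG, outside the printed run. TGACG matched in 21.2% of all windows and in those of 1 of 9 class II chain and chaperone genes, and CCAAT in 9 of 9. A match is a run of letters and not a measured binding site.

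The class II genes were the group closest to Cd74. Of 14 fixed genes 10 were tested, 9 higher and 1 lower (51.2% of all genes were higher), 0 past an adjusted p of 0.05 in limma, with a median log2 difference of 0.14 on 8 arrays and -0.11 without hyperthyroid 5 (4 higher and 6 lower). RT1-DMb, RT1-Ba and RT1-Da stood at 0.39 ± 0.24, 0.63 ± 0.43 and 0.38 ± 0.53 (log2 ± SE), and at 0.19, 0.15 and -0.28 without hyperthyroid 5. With the Gapdh ratio in the 8-array fit they stood at 0.60, 1.22 and 1.41 (adjusted p = 0.0904 for RT1-Da in limma). The beta and alpha chains of both class II molecules stood out on hyperthyroid 5. RT1-Da was at 1865 there and at 245 to 528 on the other arrays, RT1-Ba at 797 against at most 272, RT1-Bb at 374.5 against at most 113, and RT1-Db1 at 361.5 against at most 158.

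The chaperone genes RT1-DMa and RT1-DMb, which help load peptide, were at 123 and 268 on hyperthyroid 5, above all other arrays, the highest of which had 110 and 166. Ciita, the master regulator of class II genes, was at 61.2 on hyperthyroid 5 and 60.9 on control 7, so it did not stand apart. Rfx5, Rfxap and Rfxank, which bind class II promoters, lay inside the range of the other arrays. Apart from RT1-DMb, RT1-Ba and RT1-Da, which had the smallest p, these genes were chosen after their values were seen. RT1-Ba had 3 further probe sets, of which 1 was tested and stood at -0.43 where the brightest stood at 0.63 (log2 difference). RT1 genes are similar to each other and variable between outbred rats, so a probe set can miss an allele or report a relative.

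**Figure D3:**
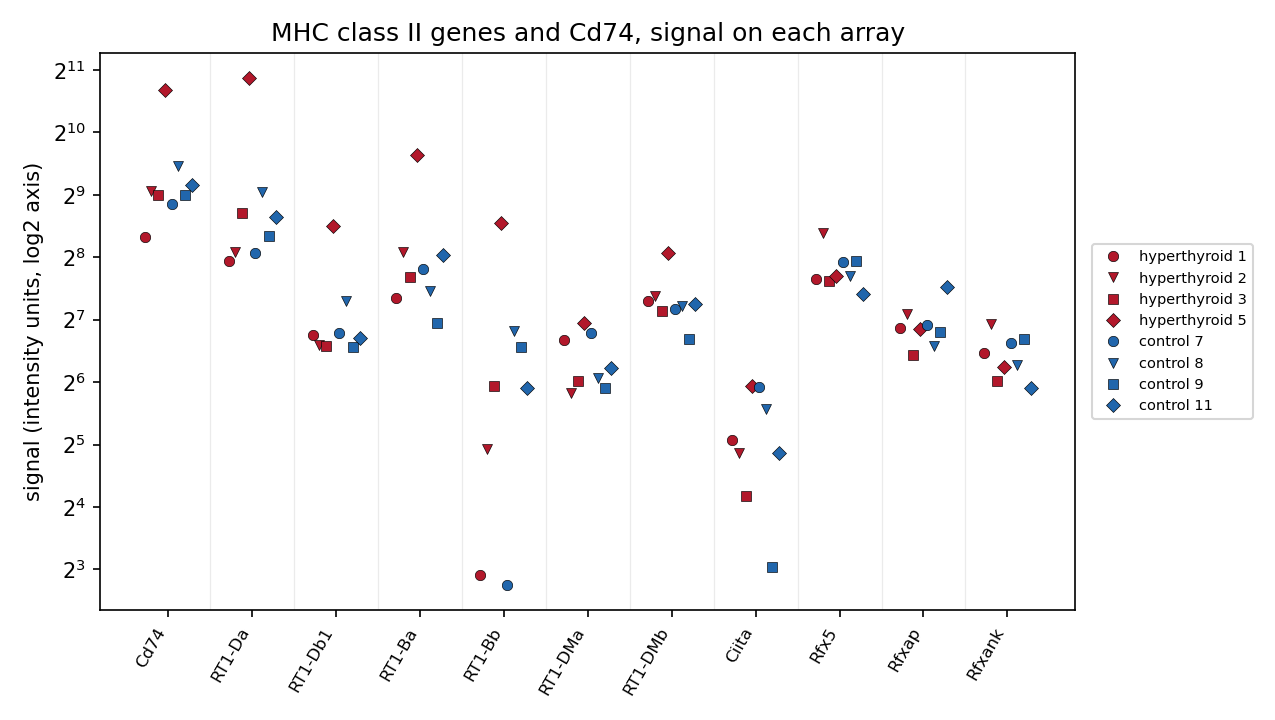
Signal of Cd74 and the 10 tested MHC class II genes on each array, in intensity units on a log2 axis, hyperthyroid in red and control in blue. Hyperthyroid 5 is far above the other arrays for Cd74 and the 4 chains RT1-Da, RT1-Db1, RT1-Ba and RT1-Bb, and inside their range for the regulators Rfx5, Rfxap and Rfxank.

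The class I heavy chains and loading genes differed from this. Of 38 fixed genes 19 were tested, 10 higher and 9 lower, 0 past the threshold, with a median of 0.15, and 6 of the 19 (31.6%) were highest on hyperthyroid 5 against 19.0% of all genes. At an unadjusted p under 0.05, 4 of the 19 (21.1%) were higher and 0 lower, where 6.34% of all genes were higher and 5.83% lower. The 4 include the heavy chain genes RT1-T24-4, RT1-T24-3 and RT1-CE12. Their probe sets can report each other's transcripts, so the 4 may not be separate signals. The smallest p belonged to RT1-T24-4 at 0.87 ± 0.24 (log2 ± SE; adjusted p = 0.272 in limma), with signals of 659, 438, 644 and 964 against 300, 366, 473 and 305, where only hyperthyroid 2 overlapped the controls. RT1-T24-3 stood at 0.77 ± 0.24 and RT1-CE12 at 0.65 ± 0.24 (adjusted p = 0.306 and 0.346 in limma), and both overlapped. Without hyperthyroid 5 the 3 stood at 0.69, 0.70 and 0.62. The peptide transporter gene Tap1 and the immunoproteasome genes Psmb8, Psmb9 and Psmb10 were lower, with unadjusted p of 0.218 or more in limma. These 4 were chosen after their values were seen. Of the other tested genes that are not heavy chains, Tapbp and Erap1 were higher, at 0.58 and 0.38 (unadjusted p = 0.04245 and 0.0983 in limma). Pdia3, Calr, Psme1 and Psme2 were lower with and without hyperthyroid 5. Canx stood at -0.11 on 8 arrays and at 0.11 without hyperthyroid 5, where its signal was 775. Hyperthyroid 1, 2 and 3 lay above every control for Canx. These genes thus did not share a direction.

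Macrophage genes beyond the list followed the same 2 arrays. Of 40 fixed genes 26 were tested, 10 higher and 16 lower, with a median of -0.11 (1 of the 26 passed the filter through hyperthyroid arrays alone). Of the 26, 17 (65.4%) were highest on hyperthyroid 5, against 19.0% of all genes, and 17 lowest on hyperthyroid 2, against 17.3%. Mrc1, the mannose receptor, was at 1075 on hyperthyroid 5 and 235 on hyperthyroid 2, with 381 to 527 on controls. C1qa, a complement chain made by macrophages, was at 687 and 89.5 with 286 to 416 on controls, and Lyz2, macrophage lysozyme, at 2045 and 455 with 646 to 1306. These 3 were chosen after their values were seen. Without hyperthyroid 5, 20 of 26 (76.9%) were lower, against 48.1% of all genes, with a median of -0.49. At an unadjusted p under 0.05, 7 of 26 (26.9%) were lower and 0 higher, against 8.24% and 7.85% of all genes. In this fit the Gapdh ratio cannot be cleanly told apart from the group. With 1 array left out at a time, the median of the list ran from -0.49 to 0.25, so its sign depended on which array was left out.

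Ctsd, the lysosomal protease cathepsin D, was the exception among them. It stood at 490, 517, 496 and 608 in hyperthyroid and at 811, 1017, 1060.5 and 1208 in control arrays, with no overlap. Its log2 difference was -0.95 ± 0.15 (adjusted p = 0.151 in limma), and it fell by 1.02 without hyperthyroid 5, where it was the only macrophage gene called (adjusted p = 0.0252). The call was lost without hyperthyroid 1 or 2 or control 8, 9 or 11 in addition (adjusted p 0.06508 to 0.145 in limma). On the 7 arrays it was also lost without the eBayes trend (0.315) and with the Gapdh ratio in the fit (0.850). With that ratio, which cannot be cleanly told apart from the group there, the log2 difference was -0.94. The call held on the 7 arrays with quantile normalization, median centring and robust eBayes (adjusted p = 0.0288, 0.0152 and 0.0162 in limma). On all 8 arrays Ctsd was called with array weights (adjusted p = 0.0383 in limma). Ctsd is made by most cell types. Of the next genes by p, Lgmn, the lysosomal protease legumain, stood at 0.28 ± 0.14 and Ctsb, cathepsin B, at -0.28 ± 0.17 (0.22 for Lgmn and -0.44 ± 0.13 for Ctsb without hyperthyroid 5; the latter adjusted p = 0.156 in limma).

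Genes of leukocytes in general were spread around 0. Of 30 fixed genes 19 were tested, 10 higher and 9 lower, with a median of 0.03 (-0.18 without hyperthyroid 5). For 3 of the 19, Lyn and Coro1a among them, only 1 group's mean reached the filter, so these could pass only by differing. On hyperthyroid 5, 10 of 19 (52.6%) had their highest signal. Lyn, a kinase of myeloid and B cells, stood at 1.57 ± 0.70 (1.73 without hyperthyroid 5), from signals of 36.2 to 79.7 against 6.89 to 48.8. Coro1a, an actin regulator of leukocytes, was at 10.96, 18.8, 8.74 and 97.3 against 43.4, 54.8, 68.65 and 60.6, so hyperthyroid 1, 2 and 3 were below every control and hyperthyroid 5 above. Its log2 difference was -1.45 ± 0.72 and -2.20 ± 0.65 without hyperthyroid 5 (adjusted p = 0.470 and 0.159 in limma). Hcls1, an adaptor of blood cells, stood at 0.52 ± 0.37, and at 0.42 without that array.

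Lymphocyte genes were mostly too dim to be tested. Of 30 T and natural killer cell genes 27 were on the array and 9 tested. Of these 9, 3 (Gzmk, Ccl5 and Cd5) passed the filter through the hyperthyroid arrays alone, so a count of directions over the 9 is not given. None of the 9 had an unadjusted p under 0.05. The smallest p belonged to Gzmk (1.43 ± 0.83), Ccl5 (0.94 ± 0.62) and Thy1 (1.38 ± 0.96), all log2 ± SE with adjusted p of 0.529 or more in limma. Without hyperthyroid 5 they stood at 1.44, 0.96 and 1.28. A second Thy1 probe set, under the filter, stood at -1.96. Thy1 is also made by fibroblasts and neurons. For each of the 3 a single control lay far under the other controls: Gzmk was at 3.11 on control 11, Ccl5 at 8.31 on control 7 and Thy1 at 2.60 on control 7. The core T cell genes Cd3d, Cd3g, Cd247, Cd2, Cd8a and Lck were under the filter. Of 18 B cell genes 2 were tested, Cd22 at 0.69 ± 0.34 and Blnk at -0.40 ± 0.53 (0.57 and -0.27 without hyperthyroid 5).

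Of 22 neutrophil and mast cell genes 6 were tested, of which Lcn2 and S100a8 passed the filter through the control arrays alone. The neutrophil proteins S100a9 and Lcn2 stood at -1.16 ± 0.74 and -0.84 ± 0.67 and S100a8 at -0.89 ± 1.35. Without hyperthyroid 5, S100a9 stood at -0.43 ± 0.54, Lcn2 at -1.23 ± 0.71 and S100a8, now higher, at 0.33 ± 1.02. The mast cell protease genes Cma1, Cpa3 and Mcpt1l1 were highest on hyperthyroid 5 (210.5, 278 and 237), where S100a8 and S100a9 were at their lowest (1.74 and 12.8). The 3 mast cell genes were chosen after their values were seen.

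Signalling genes around the list showed no call. Interferon-induced genes had 12 higher and 9 lower of 21 tested (median 0.11), with Ifi44 at 0.46 ± 0.24, Usp18 at 1.18 ± 0.61 and the chemokine Cxcl9 at -0.37 ± 0.21, and 11 of 21 (52.4%) were lowest on hyperthyroid 2, against 17.3% of all genes. Without hyperthyroid 5 the 3 stood at 0.47, 1.36 and -0.40. A second tested Cxcl9 probe set stood at 0.031. The myeloid signalling list holds partners of Csf1r, Tyrobp and Cd14 together with chemokines and other genes. Of its 15 tested genes, 8 were higher and 7 lower (median 0.10). For 3 of the 15, the filter was passed through 1 group alone. Csf1, a ligand of Csf1r, had signals of 451, 346, 474 and 326 against 359, 352, 267 and 263 (0.36 ± 0.19, adjusted p = 0.480 in limma) on its brightest probe set. The other 3 tested probe sets of Csf1 stood at 0.82, -0.50 and -0.22, so its direction is not settled. Syk, the kinase that acts after Tyrobp, stood at 0.99 ± 0.44 and the tetraspanin gene Cd9 at -0.60 ± 0.22 (adjusted p = 0.424 and 0.351 in limma), and without hyperthyroid 5 Csf1, Syk and Cd9 were at 0.45, 1.07 and -0.51.

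Markers of other cell types moved on the same arrays. From the control mean, the 9 tested genes of the list lay at a median of 0.97 on hyperthyroid 5 and -0.85 on hyperthyroid 2, and the macrophage list at 0.88 and -0.97. The adipocyte list lay at 1.34 and -1.54 and the fibroblast list at 0.75 and -0.64, with 7 of 9 and 8 of 12 tested genes highest on hyperthyroid 5. The summed signal of the adipocyte list was 5273 to 19140 in hyperthyroid and 6511 to 9183 in control arrays, and that of the fibroblast list 15384.5 to 49847 and 22018 to 40492. Myelin and glial genes lay at -5.02 and -2.55 on the 2 arrays, with sums of 1772 to 19176 and 11837 to 24314.

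Muscle fibre genes lay at 0.02 and 0.18, and endothelial genes at 0.14 and 0.39. Of 17 red cell and platelet genes 6 were tested, of which Slc4a1 and Treml1 passed the filter through the hyperthyroid arrays alone. Hbb, for beta globin, stood at -0.45 ± 0.16, and Slc4a1 and Treml1, of red cells and platelets, at 1.26 ± 0.42 and 1.55 ± 0.80, from signals of at most 70.6 and 59.2. Without hyperthyroid 5 the 3 stood at -0.45, 1.28 and 1.51. The summed signal of this list was 7771 to 10180 against 8946 to 14350. The part of these cell types in the values of the list was not tested.

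**Figure D4:**
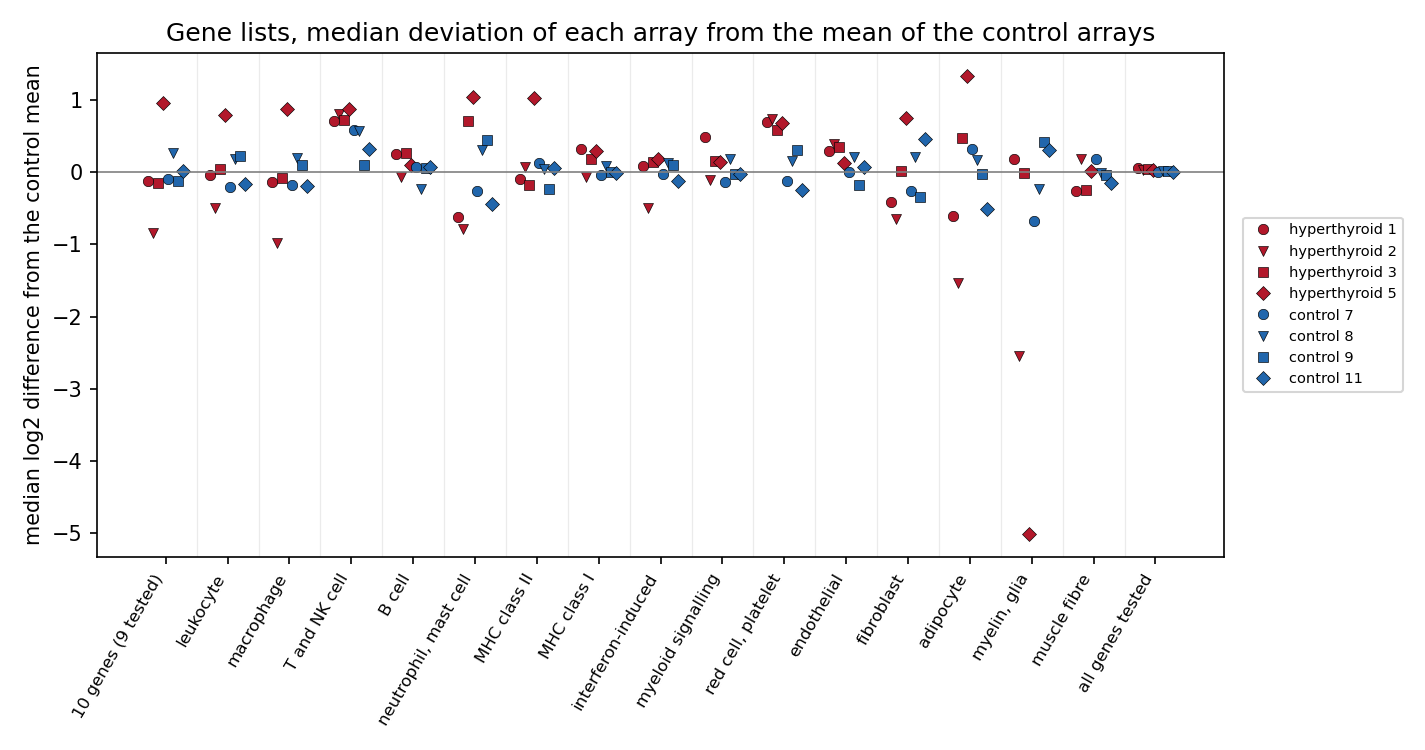
Median log2 difference of each array from the mean of the control arrays, over the tested genes of each list, hyperthyroid in red and control in blue. For the 10 genes and the macrophage, MHC class II, adipocyte and fibroblast lists, hyperthyroid 5 (red diamond) is the highest array. It is also the highest for the leukocyte, T and natural killer cell, neutrophil and mast cell, and interferon-induced lists. The T and natural killer cell medians are drawn but not read as a result. Of the 9 genes, 3 passed the filter through hyperthyroid arrays alone and 1 was highest on hyperthyroid 5. Of the 6 neutrophil and mast cell genes, 3 were highest on hyperthyroid 5, while S100a8 and S100a9 were at their lowest there.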

How the data were processed

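The authors deposited 1 linear intensity for every probe set on every array; GCOS, the array maker's software, is listed without a version in the submitters' processing notes. After trimming 2% at each end each array had a mean of 150.1, so the deposited intensities had been scaled; medians differed (47.8 to 58.5), so they had not been quantile normalized. Detection calls are not given in the sources used here. After 57 control probe sets were left out, values were set to at least 1 (0.67% were lower) and taken to log2. The brightest 60% of probe sets, ranked on their mean log2 value, were fitted with limma 3.58.1 in R 4.3.3 (trend, two-sided), and p-values were adjusted by Benjamini-Hochberg over all 18625. A gene is represented by its brightest probe set. Of the probe sets, 20826 had 1 symbol, 436 several and 9780 none, and those with several were not named. All 10 genes were found in the RefSeq table under the same symbols.

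The genes, lists, rules and tests were chosen with earlier results of these data known. Named were all 10 genes and, from each list of immune genes, those called or up to 3 with the smallest p. Other genes are said to be chosen after their values were seen. Each group holds 4 rats with 1 array each, and this number limits the precision. A median over a list is a description. The fit was tested on simulated data. The alternatives were quantile normalization, median centring, other filters and floors, 32 added before log2, other eBayes options, array weights, the Gapdh ratio as a covariate, the mean over probe sets, and leaving out arrays.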

Additional observations from a re-analysis of the deposited data

Results flagged for a closer look

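In 8 of 58 groups of 4 arrays checked, 1 array stood apart from the other 3 by more than Dixon's 95% critical share of the group's range. Chance gives about 1 in 20 for independent groups of normally distributed values. These groups share the same 8 arrays, and the signals were checked without taking logs. The count of 8 in 58 therefore cannot be set against that rate. Within the hyperthyroid group, hyperthyroid 5 stood apart for Cd68 (195.7), Cd74 (1643), Tyrobp (130) and the dimmer Ptprc probe set (45.9). Within the control group, control 8 stood apart for Cd163 (401) and for the brighter Cd3e probe set (26.9, under the filter level). The median of the 2 tested B cell genes lay at -0.22 from the control mean on control 8. The median of the interferon-induced genes lay at -0.50 on hyperthyroid 2.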

How the results depend on the processing

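No gene of the list was called under any alternative run, with or without hyperthyroid 5. The count of called probe sets, 0 on 8 arrays in limma (2151 at an unadjusted p under 0.05), became 8 once the Gapdh ratio was added to the fit, 6 with array weights, 9 without hyperthyroid 2 and 5, and 0 to 29 with 1 array left out, where 29 came without hyperthyroid 5 and 0 without each of the others. The 29 calls without hyperthyroid 5 became 78 with 32 added before log2, 1 with the Gapdh covariate, 0 without the eBayes trend (2404 at an unadjusted p under 0.05), 85 in the upper 40%, 70 with a floor of 16, 71 without a filter and 315 with median centring (13 higher and 302 lower, where the fit as reported had 10 and 19). With 1 more array left out they ranged from 0 (without hyperthyroid 1, control 8 or control 11) to 144 (without hyperthyroid 3), with 9 without hyperthyroid 2, 11 without control 7 and 2 without control 9. Median centring moved the median log2 difference of all probe sets from 0.03 to -0.09, and from 0.04 to -0.14 without hyperthyroid 5.

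With the Gapdh covariate the log2 difference turned to 0.16 for Adgre1, 0.37 for Cd163, 0.25 for both B2m probe sets, 0.20 for Tyrobp and 0.0082 for Ctsb. Without hyperthyroid 5 the same covariate, which cannot be cleanly told apart from the group there, gave 0.32 for Adgre1, 0.31 for Cd14, and 0.0092 and 0.19 for B2m. Cd68, Cd163, Cd74, Tyrobp and Csf1r stayed lower with it there. Without hyperthyroid 2 and 5, and without the covariate, the log2 difference turned to -0.18 for Cd68, -0.46 for Cd74, -0.043 for RT1-Ba, -0.20 for RT1-Da and 0.10 for S100a8. Array weights gave -0.10 for Cd74, and the dimmer Ptprc probe set turned to -0.085 with 32 added and -0.22 with a floor of 16. Leaving out 1 array gave -0.12 to 0.57 for Cd68, -0.21 to 0.58 for Cd14, -0.55 to 0.21 for Cd163, -0.33 to 0.46 for Cd74, -0.34 to 0.068 and -0.35 to 0.079 for B2m, -1.999 to 0.33 for S100a8, -0.28 to 0.70 for RT1-Da and -0.64 to 1.14 for the dimmer Ptprc probe set. With hyperthyroid 5 left out already, leaving out 1 more gave these ranges: -0.28 to 0.15 for Cd68, -0.40 to 0.13 for Cd14 and -1.37 to 0.40 for the dimmer Ptprc probe set. The cause of these turns was not tested. No paired analysis was possible because the groups share no replicate numbers.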
